A study of Gallus gallus with 16 samples.

Results

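The genes described here are the mitophagy receptors BNIP3, BNIP3L and FUNDC1, the mitophagy kinase PINK1 and the lens nuclease DNASE2B, in fiber cells of chick lenses. They were chosen by name: every peak was taken that the deposited CUT&RUN table assigns to any of the 5 symbols. 4 of the 5 symbols occur in the table, which holds 14100 gene IDs, and they account for 31 of its 108520 peaks. No row carries the symbol DNASE2B. CUT&RUN uses an antibody to direct a nuclease that cuts out the DNA around a chromatin mark. H3K4me3 marks active promoters, and H3K27ac marks active promoters and enhancers.

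The lenses came from White Leghorn chick embryos at embryonic day 13 and were cultured whole in medium with serum, after which the fiber cells were dissected from the epithelium. Groups were lenses in 21% oxygen (normoxia) and in 1% oxygen (hypoxia), both for 2 h per the treatment labels, with no genetic change in either. The extraction text names 0 h as the other dissection time, so whether the normoxia lenses spent 2 h in culture is not settled by the labels. The labels give 2 H3K27ac libraries and 3 H3K4me3 libraries per condition, each from 10 to 15 pooled lenses. The table gives 1 list of peaks per mark and condition, 4 lists in all, without a height or a value per library. No difference below therefore has a replicate check or a p-value, and the read depth behind each list is unknown. IgG was not analysed here.

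Fiber cells lose their mitochondria, endoplasmic reticulum and nuclei as they mature, which leaves the centre of the lens clear. In mitophagy, a mitochondrion is marked for enclosure in an autophagosome either by a receptor in its outer membrane that binds LC3-family proteins, as BNIP3, BNIP3L and FUNDC1 do, or by the kinase PINK1, which gathers on damaged mitochondria and starts their tagging with ubiquitin. In mammals BNIP3 and BNIP3L are known targets of hypoxia-inducible factors, BNIP3L is needed for mitochondrial loss in red cells and lens fibers, and DNASE2B is the lysosomal nuclease that degrades nuclear DNA in mouse lens fibers.

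The lists differ in size for the whole genome, which bears on every comparison between conditions. The H3K27ac list held 15511 peaks in normoxia and 45734 in hypoxia, and the H3K4me3 list 22288 and 24987. The part that this gap plays in the values below was not tested. Of 11 markers of lens fibers, 10 had a promoter peak, meaning a peak within 3000 bp of a transcription start site (TSS), of either mark, and 9 of these had H3K27ac in both lists. Promoter peaks were also found at 5 of 6 epithelial markers, 3 of 6 retinal and neuronal markers, 2 of 8 blood and endothelial markers and 3 of 5 mesenchyme markers. Of all 14100 gene IDs with a peak, 11758 had a promoter peak. Marker names without any assigned peak are counted here as lacking one. H3K27ac was at these promoters in both lists at 2 epithelial, 1 retinal or neuronal and 0 other markers. It was in hypoxia only at 3 epithelial, 2 retinal or neuronal, 2 mesenchyme and 0 blood or endothelial markers, against 1 fiber marker. H3K4me3 was in both lists at 8 fiber, 5 epithelial, 2 retinal or neuronal, 1 blood or endothelial and 1 mesenchyme marker. It was in hypoxia only at 1 fiber and 1 blood or endothelial marker. Of all genes with a promoter peak of either mark, 37.1% had H3K27ac in both lists and 37.2% in hypoxia only. For H3K4me3 these shares were 84.3% and 4.75%. The part of other cells in the values below was not tested.

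H3K4me3 lay at the promoters of all 4 genes in both lists, as at 84.3% of the 11758 genes with a promoter peak of either mark, whereas H3K27ac took a different form at each gene. The H3K4me3 promoter peaks overlapped between conditions at all 4; at 0.769% of genes with such peaks in each list they did not. The 5 H3K27ac peaks of the 4 genes in normoxia summed to 1.83 kb and the 10 in hypoxia to 12.3 kb, a ratio of 6.75. BNIP3L supplied most of this length, and without it the ratio was 9.38. That value rests on a single normoxia peak, of 224 bp at PINK1, since BNIP3 and FUNDC1 had no normoxia H3K27ac. PINK1 alone had a ratio of 1.79. The whole H3K27ac lists covered 11.0 Mb in normoxia and 36.9 Mb in hypoxia, and the H3K4me3 lists 38.6 and 42.4 Mb. At the 4 genes H3K4me3 had 8 peaks in each list, which summed to 14.9 kb under normoxia and 17.3 kb under hypoxia (ratio 1.16). No peak of these genes was also assigned to another gene. Of their H3K27ac peaks, 4 of 5 in normoxia overlapped a hypoxia peak (60.7% of the whole normoxia list did), and 3 of 10 in hypoxia overlapped a normoxia peak (19.3% of the hypoxia list). H3K4me3 of the same condition overlapped 3 of 5 in normoxia (50.3% of the list) and 5 of 10 in hypoxia (35.6%). Each list share lies within the Wilson 95% interval of the matching share here, but that interval treats peaks as independent. BNIP3L held 4 of the 5 normoxia and 7 of the 10 hypoxia H3K27ac peaks. The interval therefore cannot tell whether these genes differ from the lists. With 50% of both peaks required to overlap, no H3K27ac peak of these genes was shared between conditions, against 15.6% of the normoxia list and 5.29% of the hypoxia list.

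**Figure D1:**
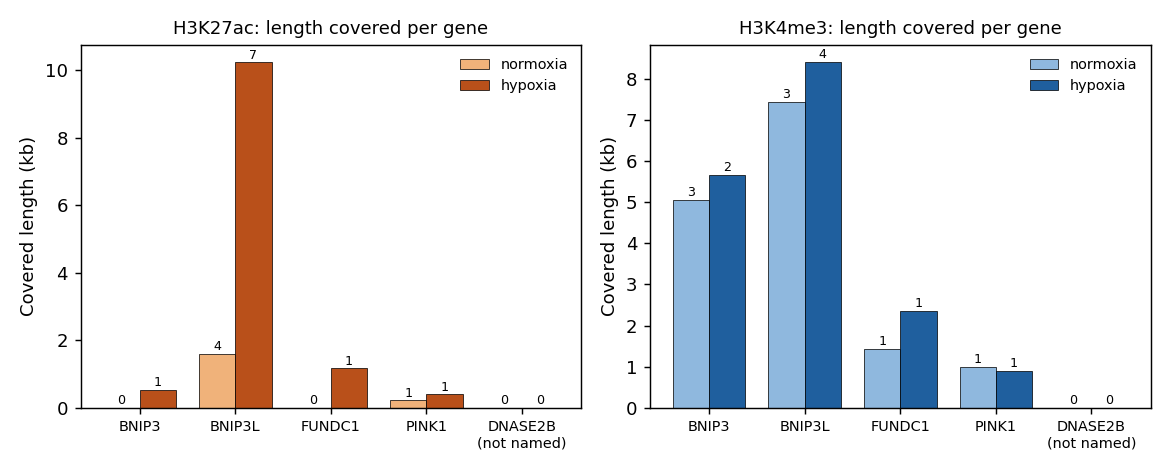
Length covered by the peaks assigned to each gene (kb, bars from 0) in the normoxia and hypoxia lists of H3K27ac (left) and H3K4me3 (right), with the number of peaks above each bar and no error, since each list is a single value. BNIP3L has the tallest bars in every list, and its H3K27ac bars are 1.60 kb for normoxia and 10.2 kb for hypoxia.

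Among the receptors, BNIP3L (ENSGALG00000043405), also called NIX, had the most peaks in each mark. It lies on the minus strand of chromosome 22, and the peak distances place the starts of its transcripts at 682702 and 683049, 347 bp apart (galGal6). Distances below are from the first of these. Its H3K4me3 promoter peak spanned 676595 to 682714 in normoxia (6120 bp) and 675399 to 682811 in hypoxia (7413 bp). All of the normoxia peak lay within the hypoxia peak, which reached 1196 bp further into the gene and 97 bp further upstream. A second normoxia peak, of 685 bp in an intron (675061 to 675745), overlapped the inner end of this hypoxia peak. It ended 7641 bp downstream of the start, and the hypoxia peak ended 7303 bp downstream. A separate hypoxia peak of 633 bp lay 11546 to 12178 bp downstream, with no normoxia peak on it. Each gene with a promoter peak in a list was ranked by its widest one. The 6120 bp peak was wider than that of 92.8% of such genes in normoxia. The 7413 bp peak was wider than that of 94.4% in hypoxia. In 9.94% of genes with promoter peaks in each list, the widest was at least 5000 bp in both, as it was at BNIP3L.

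Within this H3K4me3 domain of BNIP3L, the H3K27ac peaks of normoxia were short. They were 742 bp (2331 to 3072 bp downstream of the TSS) and 496 bp (3765 to 4260 bp downstream). In hypoxia a single peak of 3906 bp, from 677598 to 681503, covered both of them and the sequence between. It began 1199 bp inside the gene, so that no H3K27ac peak of either list was within 1000 bp of the start. H3K27ac covered 20.2% of the H3K4me3 peak at the start in normoxia and 58.0% in hypoxia. The medians over 9366 genes with such a peak in each list were 0% and 27.8%, and the covered part was larger in hypoxia at 64.2% of those genes.

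Beyond the 3' end of BNIP3L, a hypoxia H3K27ac peak of 3641 bp (664861 to 668501, which the table classes as downstream) surrounded a normoxia peak of 191 bp. H3K4me3 there was listed as short peaks of 624 bp in normoxia and of 185 and 180 bp in hypoxia that did not overlap between conditions. On the upstream side, the hypoxia list had H3K27ac peaks of 875 bp (2964 to 3838 bp upstream), 571 bp and 672 bp. The last of these overlapped a normoxia peak of 175 bp. The table places the 571 bp peak in an exon and the 672 and 175 bp peaks in an intron of the next gene, PPP2R2A, a regulatory subunit gene of protein phosphatase 2A. Besides a 404 bp peak in an intron of BNIP3L, the remaining hypoxia peak was 172 bp, just past the gene.

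Over all its peaks, BNIP3L had 1.60 kb of H3K27ac in 4 normoxia peaks and 10.2 kb in 7 hypoxia peaks, 6.38 times the length (log2 2.67). All 4 normoxia peaks overlapped a hypoxia peak, and 3 of the 7 hypoxia peaks overlapped a normoxia peak, but none by 50% of both. The ratio was higher than that of 81.1% of the 6959 genes with H3K27ac in both lists, whose median was 2.89. With peaks under 500 bp left out it was 13.0, because 1 normoxia peak was left. With the hypoxia list reduced to as many peaks as the normoxia list holds, keeping the widest, it was 5.25. No median over all genes was computed at these settings, and the second keeps wide peaks by its rule. Only BNIP3L and PINK1 among the genes here had H3K27ac in both lists. Both covered more in hypoxia, as 89.7% of all 6959 such genes did. A ratio of 2 was reached by 1 of the 2, BNIP3L, and by 67.3% of the 6959. Neither covered at least 2 times as much in normoxia, which 3.23% of the 6959 did. For H3K4me3 the covered length of BNIP3L was 7.43 kb in 3 peaks and 8.41 kb in 4 peaks, a ratio of 1.13.

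**Figure D2:**
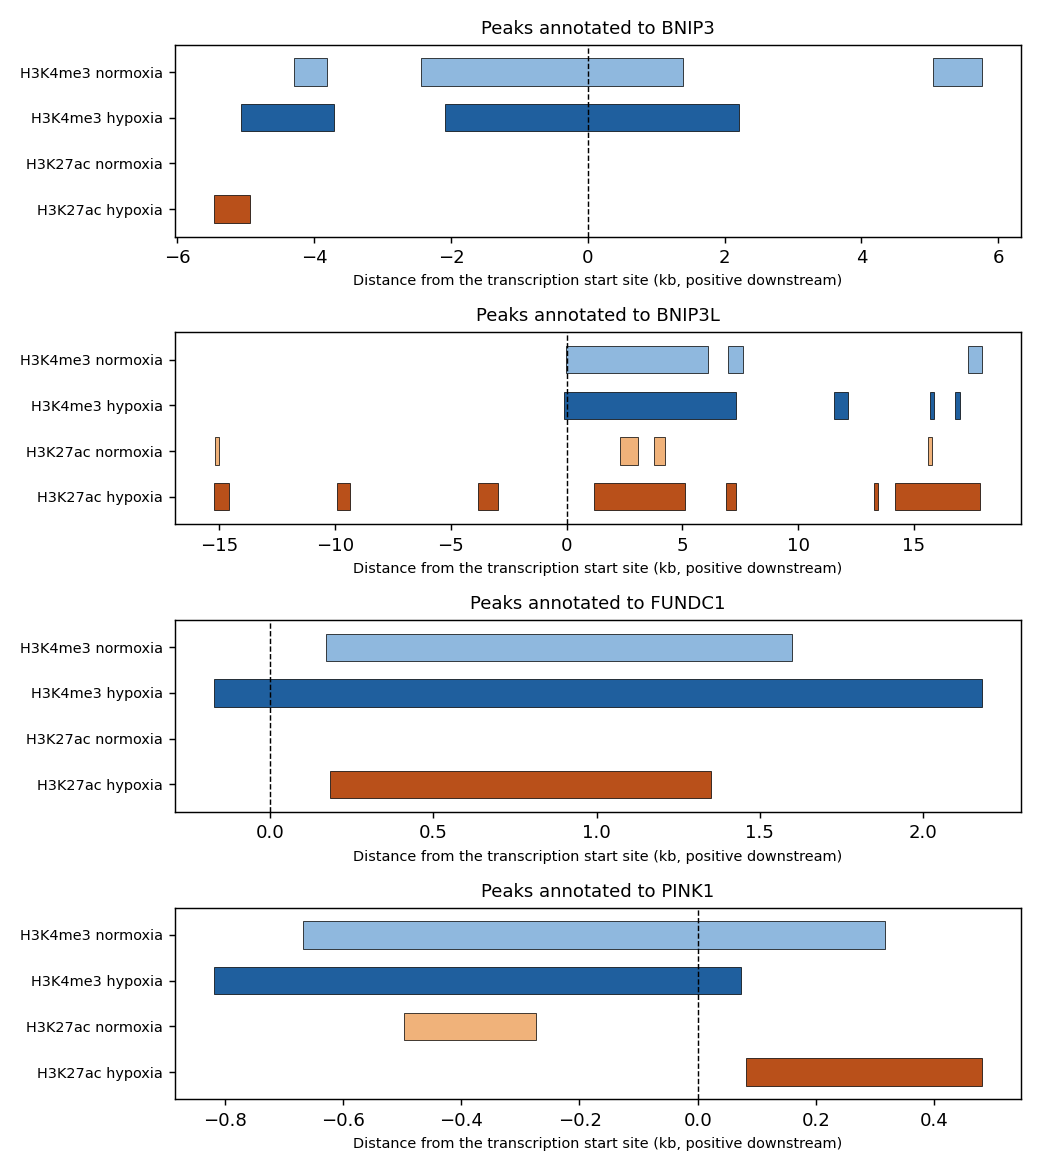
Positions of the peaks assigned to BNIP3, BNIP3L, FUNDC1 and PINK1 in the 4 lists, as distance from the TSS in kb along the direction of transcription (dashed line at the TSS, each panel with its own scale). At BNIP3L the hypoxia H3K27ac peaks extend from 15.2 kb upstream to 17.8 kb downstream, at BNIP3 the only H3K27ac peak lies away from the start, and at PINK1 the H3K27ac peaks of the conditions lie on opposite sides of the start.

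BNIP3 (ENSGALG00000010476), the paralog of BNIP3L, had no H3K27ac on the H3K4me3 peak over its start. It lies on the minus strand of chromosome 6 with its start at 35762509. The H3K4me3 peak over the start was 3838 bp in normoxia (35761111 to 35764948) and 4291 bp in hypoxia (35760299 to 35764589). They shared 3479 bp, 90.6% of the normoxia and 81.1% of the hypoxia peak, and the hypoxia peak reached 812 bp further into the gene and ended 359 bp closer to the start on the upstream side. Both were wider than the widest promoter peak of about 8 in 10 genes with one in their lists (79.6% and 80.6%).

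A further H3K4me3 peak stood upstream of BNIP3 in both lists. It was 490 bp in normoxia, 3807 to 4296 bp from the start, and 1359 bp in hypoxia, where it contained the normoxia interval. A normoxia peak of 719 bp past the 3' end had no counterpart in hypoxia. Over all peaks, H3K4me3 covered 5.05 and 5.65 kb, a ratio of 1.12, against a median of 1.09 over 11063 genes.

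The only H3K27ac peak of BNIP3 was in the hypoxia list, 531 bp wide, 4940 to 5470 bp upstream of the start (35767449 to 35767979). It shared 124 bp with the far end of the upstream hypoxia H3K4me3 peak. The nearest normoxia H3K27ac peak lay 36705 bp away. By the 3000 bp window BNIP3 had no H3K27ac promoter peak in either list, as did 20.9% of the 11758 genes with a promoter peak of either mark. The table's own promoter classes reach 5 kb, and with a window of 5000 bp, chosen after the data were seen, BNIP3 had H3K27ac in the hypoxia list only. The share of all genes in that state was not computed for this window. No H3K27ac lay on the H3K4me3 peak at the start in either condition at BNIP3, as at 19.9% of genes with that peak in each list. The 531 bp peak was lost when the hypoxia list was reduced to its widest 15511 peaks.

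The paralogs have related neighbours. In the RefSeq gene order of the chicken assembly GRCg7b, BNIP3L stands between DPYSL2 and PPP2R2A, and BNIP3 stands next to PPP2R2D, with DPYSL4 on the other side beyond JAKMIP3. From normoxia to hypoxia, the H3K27ac length of PPP2R2A was 0.691 and 3.87 kb, and that of PPP2R2D 1.44 and 2.02 kb. At DPYSL2 H3K27ac was listed in hypoxia only (4 peaks over 4.33 kb), and at DPYSL4 it covered 0.162 and 0.185 kb.

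FUNDC1 (ENSGALG00000028187), the third receptor, has its start on the plus strand of chromosome 1 at 112334358, and each list held at most 1 peak for it. Its H3K4me3 peak was 1429 bp in normoxia (112334530 to 112335958), beginning 172 bp downstream of the start, and 2355 bp in hypoxia (112334185 to 112336539), covering the start. The hypoxia peak contained the normoxia peak and extended 345 bp further upstream and 581 bp further downstream. The ratio of 1.65 was higher than that of 86.0% of the 11063 genes with H3K4me3 in both lists. For H3K4me3, 3 of the 4 genes covered more in hypoxia (60.1% of those 11063). None of the 4 reached a ratio of 2 in either direction. Of the 11063 genes, 7.44% did towards hypoxia and 4.36% towards normoxia.

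H3K27ac at FUNDC1 was listed in hypoxia only, as a peak of 1169 bp (112334542 to 112335710) that lay wholly within the H3K4me3 peak and covered 49.6% of it. The nearest H3K27ac peak of the normoxia list was 37763 bp away. FUNDC1 alone of the 4 genes had H3K27ac at its promoter in hypoxia and not in normoxia. This state was found at 37.2% of genes with a promoter peak of either mark. Of genes with an H3K4me3 peak within 1 kb of the start, 54.5% had no H3K27ac on it in normoxia, FUNDC1 and BNIP3 among them. In hypoxia 27.1% of such genes had none on it, PINK1 and BNIP3 among them. Counting peaks at any distance, FUNDC1 and BNIP3 had H3K27ac in hypoxia and none in normoxia, as did 41.9% of the genes with this mark.

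PINK1 (ENSGALG00000037593) had the narrowest H3K4me3 peak at its start of the 4 genes, in both conditions. Its start is on the plus strand of chromosome 21 at 4905099. The H3K4me3 peak was 985 bp in normoxia (4904431 to 4905415) and 894 bp in hypoxia (4904280 to 4905173), a ratio of 0.908. The hypoxia peak began 151 bp further upstream and ended 242 bp earlier downstream. These peaks were wider than the widest promoter peak of only 16.6% and 12.8% of genes with one in their lists.

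The H3K27ac peaks of PINK1 did not coincide between conditions. The normoxia peak was 224 bp, from 497 to 274 bp upstream of the start, inside the H3K4me3 peak, of which it covered 22.7%. The hypoxia peak was 401 bp, from 81 to 481 bp downstream, and it missed the H3K4me3 peak of hypoxia by 6 bp. A gap of 354 bp separated the H3K27ac peaks of the conditions. Among 4159 genes with H3K27ac promoter peaks in each list, 18.0% likewise had none that overlapped the other list. At PINK1 the part of the H3K4me3 peak under H3K27ac, 0% in hypoxia, was smaller than in normoxia. The same held at 15.9% of genes with an H3K4me3 peak at the start in each list. The covered ratio of 1.79 was below the median of genes with H3K27ac in both lists, and higher than that of 28.1% of them. Both H3K27ac peaks of PINK1 are under 500 bp, so neither was kept at that minimum width.

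**Figure D3:**
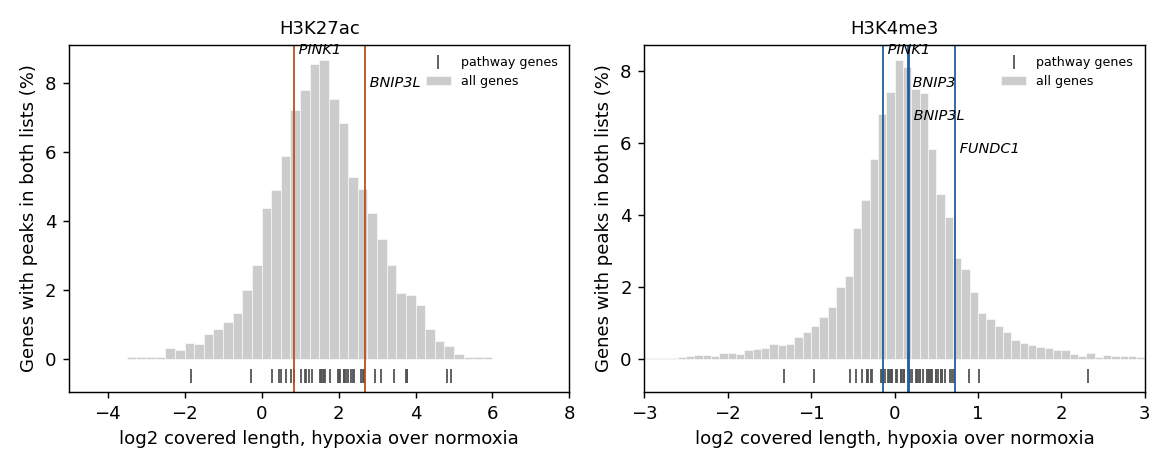
Distribution of the log2 ratio of covered length, hypoxia over normoxia, over genes with peaks in both lists (grey bars, percent of genes) for H3K27ac (left) and H3K4me3 (right), with the pathway genes as ticks below and the genes described here as vertical lines. Only genes with peaks in both lists can be drawn, so BNIP3 and FUNDC1 are absent on the left; BNIP3L lies at 2.67 and PINK1 at 0.84, on either side of the median of 1.53.

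DNASE2B could be placed by its neighbours alone. In the RefSeq order on chromosome 8 it overlaps LOC101747367 and stands between RPF1 and THAP10. The table has peaks for both flanking genes, each with H3K27ac and H3K4me3 promoter peaks in both lists. Between the facing peaks of the flanking genes lie 49.4 kb that contain 2 peaks. Both were in hypoxia lists and both were assigned to ENSGALG00000008834, an ID that the table does not pair with a symbol. The H3K27ac peak was 363 bp (17005858 to 17006220) and covered the start of that gene, and the H3K4me3 peak was 785 bp (17007775 to 17008559), beginning 1786 bp downstream. No source used here says which gene this ID stands for, so its peaks were not counted for DNASE2B.

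**Figure D4:**
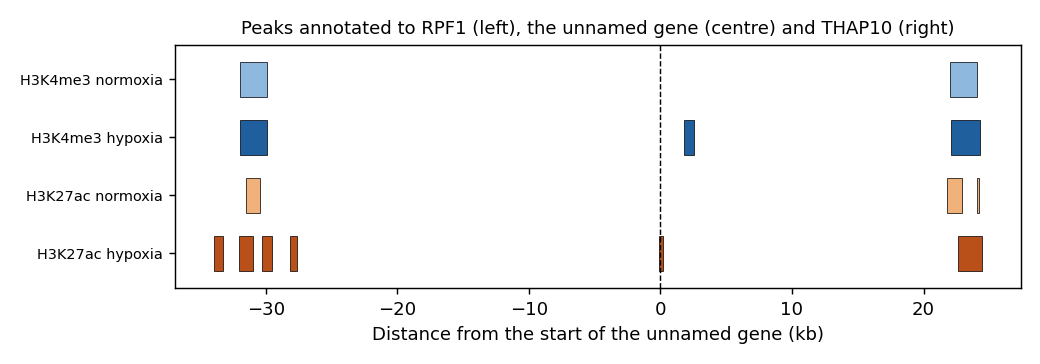
Peaks of the 4 lists assigned to RPF1 (left), to the unnamed gene ID (centre) and to THAP10 (right), as distance in kb from the start of the unnamed gene (dashed line). The flanking genes have peaks in every list, and the centre has 1 H3K27ac and 1 H3K4me3 peak, both of hypoxia.

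Genes with the profile most like each of these were found by the Euclidean distance between log2(covered bp + 100) over the 4 lists. For BNIP3 they were HPSE (distance 0.0698), BICD1 (0.116) and CYP4A22 (0.275). For BNIP3L they were MSRA (0.257), USP7 (0.339) and MAP3K1 (0.354). For FUNDC1 they were ODF2L (0.0381), RUVBL1 (0.149) and TBCEL (0.149), and for PINK1 CDK2AP2 (0.226), DIPK1B (0.358) and EXOC7 (0.541). Among the 4 genes themselves the closest pair was BNIP3 and FUNDC1 (2.36), and BNIP3 and BNIP3L were 5.80 apart.

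The wider pathway was described from a list of 46 names of mitophagy and autophagy genes and 26 names of genes of organelle removal in lens fibers. Of these, 43 and 18 are in the table, and all 61 had a promoter peak, as did 11758 of all 14100 gene IDs. H3K4me3 was in both lists at 60 of the 61 genes (98.4%, against 84.3% of the 11758) and in hypoxia only at 1 (4.75% of the 11758). None was in normoxia only (3.21% of the 11758) or had an H3K4me3 promoter peak in neither list (7.76%). H3K27ac was in both lists at 30 (49.2%, against 37.1%), in hypoxia only at 18 (29.5%, against 37.2%), in normoxia only at 2 (3.28%, against 4.77%) and in neither at 11 (18.0%, against 20.9%). The 2 sets compared differ in H3K4me3, which 60 of the 61 genes but 84.3% of the 11758 had in both lists. H3K27ac shares over genes with H3K4me3 in both lists alone are not given here. With peaks under 500 bp left out, both lists had H3K27ac at 18 pathway genes and hypoxia alone at 20, which turned the order. Keeping only as many of the widest hypoxia peaks as normoxia has, these counts were 22 and 8. The shares of all genes were not computed at either setting. Whether the change of order is particular to the pathway genes therefore cannot be told. Over the 44 genes with H3K27ac peaks at any distance in both lists, the covered ratio had a median of 3.70, against 2.89 over all such genes. This ratio was at least 2 at 35 of the 44 (79.5%, against 67.3%). At AMBRA1 alone it was under 0.5 (0.281). For H3K4me3 the median ratio was 1.15 over 60 genes with peaks at any distance in both lists, against 1.09 over all such genes. It was at least 2 at MAP1LC3C (5.00) and MFN2 (2.02) and under 0.5 at ATG7 (0.398). So 2 and 1 of the 60 genes were past these bounds, against 7.44% and 4.36% of all genes with peaks in both lists. MFN2 and ATG7 were named after their values were seen.

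The widest H3K27ac promoter peaks present in both lists belonged to CSNK2A1, a casein kinase 2 catalytic subunit gene (2658 bp in normoxia and 7817 bp in hypoxia), to the mitochondrial fusion gene MFN1 (1176 and 6278 bp) and to the phospholipase gene HRASLS (2217 and 4527 bp), whose family degrades organelle membranes in zebrafish and mouse lenses. In hypoxia only, the widest were at RHEB, a GTPase that activates mTORC1 (1711 bp), at MAP1LC3A, an LC3 protein to which mitophagy receptors bind (1399 bp), and at BCL2L13, another mitophagy receptor (1378 bp). The genes with a promoter peak in normoxia only were the autophagy receptor gene CALCOCO2 (620 bp) and the mitochondrial ubiquitin ligase gene MUL1 (163 bp), which lies near PINK1 on chromosome 21. CALCOCO2 had 5 hypoxia peaks elsewhere, over 3.19 kb. Outside the promoter window, normoxia H3K27ac was listed at BCL2L13 (1.94 kb) and RHEB (0.167 kb), but not at MAP1LC3A.

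No H3K27ac peak was listed in either condition in the promoter window of the mitophagy receptor gene FKBP8. The same held for NLRX1, for the autophagy receptor gene SQSTM1, for USP30, a mitochondrial deubiquitinase that opposes mitophagy, for the fusion gene OPA1, for BECN1, AMBRA1 and MAP1LC3C of autophagosome formation, and for LMNB1 of the nuclear lamina. FKBP8, NLRX1, USP30 and BECN1 had no H3K27ac peak at any distance. Outside the window, hypoxia alone had H3K27ac at OPA1 (2.40 kb) and MAP1LC3C (1.72 kb). From normoxia to hypoxia it covered 0.332 and 1.37 kb at SQSTM1, 0.436 and 1.77 kb at LMNB1, and 1.88 and 0.527 kb at AMBRA1. Of H3K4me3, the widest promoter peaks were at TDRD7, an RNA granule gene needed in the lens (5411 bp in normoxia and 9766 bp in hypoxia), CDKN1B, the cell cycle inhibitor p27 (9292 and 7633 bp), and LAMP2 of the lysosomal membrane (7686 and 7560 bp).

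**Figure D5:**
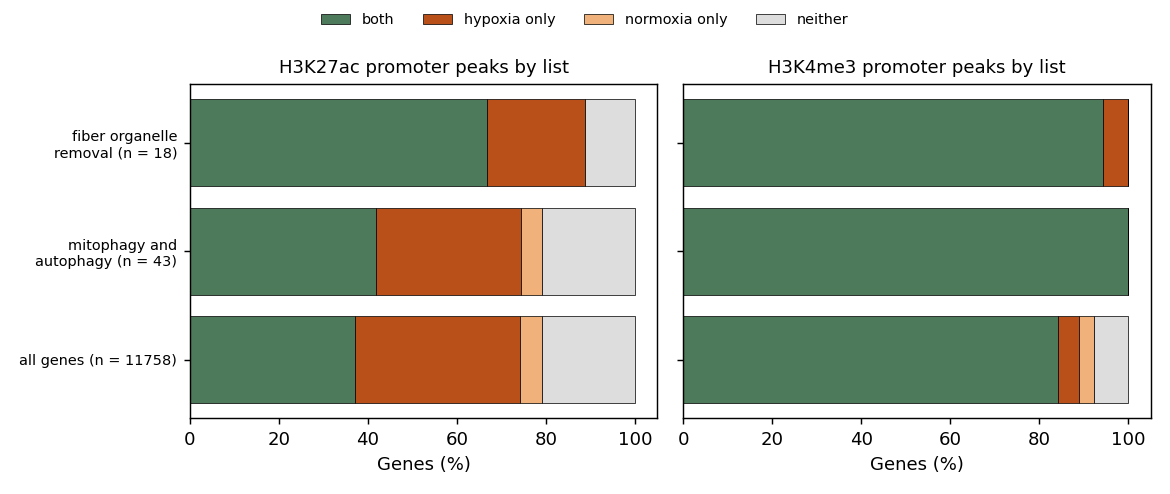
Percent of genes with a promoter peak in both lists, in hypoxia only, in normoxia only or in neither, for H3K27ac (left) and H3K4me3 (right), over all 11758 genes with a promoter peak of either mark, 43 mitophagy and autophagy genes and 18 fiber organelle removal genes. H3K4me3 is in both lists at nearly all pathway genes, and H3K27ac in both lists takes 66.7% of the fiber organelle removal genes and 41.9% of the mitophagy and autophagy genes.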

How the data were processed

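The authors deposited a table of peaks with positions, transcript, distance to the TSS and genomic class, per the file headers. It holds no other unit and no value per library. Tools named in the submitters' processing notes, without role or version, are ChIPseeker, MACS2, STAR and DESeq2, and the build is galGal6. Whether libraries were pooled before peak calling, the threshold and the control are not given in the sources used here. Starts were raised by 1 from the BED convention. Of 124414 lines, 15894 repeated an interval of the same list, and each interval was counted once per gene. Transcript starts inferred from the distances were consistent for 99.8% of 9858 transcripts with at least 3 informative peaks. A promoter counted as in both lists where each held a peak for it, or where the peak of one shared at least 1 bp with a peak of the other. Covered length is the summed peak width. The planned count model was not run, since no values per library were in the table. Overlap and state calls were tested on simulated data. Genes were named as the 5 members, the 3 widest pathway genes per mark and promoter state, pathway genes with H3K27ac in neither list, and the 3 nearest profiles. A few genes that fall under it were not reported here. The members and lists were chosen with earlier results of these data known. Python 3.11.15 with pandas 2.3.3 was used.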

Additional observations from a re-analysis of the deposited data

How the results depend on the processing

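Of the recomputed summary values, 62 stayed within 1.5 times the reported count or ratio or within the Wilson 95% interval, and 16 moved. With peaks under 500 bp left out, H3K27ac was in both lists at 1 of these genes in place of 2 and at 18 pathway genes in place of 30, normoxia H3K27ac kept 1 of 5 peaks, the H3K27ac ratio of the genes together was 15.3 in place of 6.75, and 2 pathway genes in place of 1 had H3K4me3 in hypoxia only. With the longer lists reduced to their widest peaks, hypoxia H3K27ac kept 4 of 10 peaks, 1 gene was in both lists, and 8 pathway genes in place of 18 were in hypoxia only. With a window of 1000 bp, 1 gene had H3K27ac in both lists, and with 5000 bp, chosen after the data were seen, 2 had it in hypoxia only. No share or median over all genes was computed at the settings of this paragraph. These changes therefore cannot be set against those of the whole lists.

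Of the H3K27ac peaks, 80.0% (4 of 5, interval 37.6 to 96.4%) overlapped the other condition in normoxia and 30.0% (3 of 10, 10.8 to 60.3%) in hypoxia. Over the whole lists these were 60.7% and 19.3%. On H3K4me3 lay 60.0% and 50.0%, against 50.3% and 35.6% of the lists. With 50% of both peaks required to overlap, the shares at these genes were 0%, 0%, 0% and 10.0%. For the overlap between conditions, the lists then had 15.6% and 5.29%. For the overlap with H3K4me3, the last 0% and the 10.0%, no list share was computed at this setting. Those values therefore cannot be read as particular to these genes. At 500 bp or more both normoxia shares of these genes were 100% of 1 peak. The intervals treat peaks as independent, though most H3K27ac peaks came from BNIP3L, so they serve only as bounds for the recomputed values. Leaving out distal intergenic peaks, or peaks inside other genes, moved no value past these bounds. No paired analysis was possible because the table has no value per library, and leaving out replicates was not run for the same reason. Read depth limits these lists to an unknown degree: a missing peak does not show that the mark is absent.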
